A study of Homo sapiens with 10 samples.

Results

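FOS-only sites are binding sites of FOS in transformed mammary epithelial cells at which none of the other 4 proteins mapped in the same cells, JUN, JUNB, STAT3 and NFKB1, had a peak summit within 300 bp of the FOS summit. They were selected on the peak lists of transformed cells, and 41116 of the 164605 FOS sites on chromosomes 1 to 22 and X met the rule (25%). The number and strength of these sites in transformed cells are therefore a description of the selection, whereas the peak lists of non-transformed cells were not used to choose them. The series holds 10 such lists with 879550 sites, made by ChIP-seq (sequencing of DNA recovered with an antibody against the protein), with 1 library for each of the 5 proteins in each of 2 conditions. All libraries came from MCF10A-ER-Src cells, a derivative of the non-tumorigenic MCF-10A line whose v-Src is joined to the hormone-binding part of the estrogen receptor and becomes active when tamoxifen is added. The transformed cells received 1 μM 4-hydroxy-tamoxifen for 12 h according to the labels. The non-transformed cells carried the same fusion, and the library names inside their lists give ethanol for 36 h, so the length of culture may have differed between the conditions.

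FOS is a subunit of the transcription factor AP-1. It does not pair stably with itself and binds DNA together with a protein of the JUN family, such as JUN or JUNB. STAT3 is activated by cytokine receptors and by Src-type kinases, and NFKB1 is a DNA-binding subunit of NF-κB, both of which act with AP-1 in inflammatory gene expression. A FOS-only site is thus a site without a peak of the partners that were mapped, and not a site shown to lack a partner, since other AP-1 proteins were not analysed here.

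The FOS library of transformed cells was the deepest of the 10, with 22082403 reads after the authors' filter, and gave the longest list. The other libraries of transformed cells held between 8967267 (STAT3) and 18454386 (JUN) reads, with 15750765 for JUNB and 9674390 for NFKB1. Before transformation FOS had 18619521, JUN 15852999, JUNB 9178601, STAT3 10929003 and NFKB1 4837474 reads. Peaks were called without a control library, and no value has a replicate. The library names carry replicate letters (repB for both FOS libraries, repC and repA for JUNB before and after), and other replicates were not analysed here. Whether each list holds the protein on its label was not checked, since the lists give no gene levels and motifs were not analysed. Intervals in parentheses are 95% intervals over sites, they cover the sampling of sites only, and no p-value is given.

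FOS-only sites were weak FOS sites. Their pileup, the number of extended reads stacked over the summit, had a median of 10.0 and ranged from 5 to 66, against a median of 21.0 and a range of 5 to 150 at the other 123489 FOS sites. The median fold enrichment over the local background was 5.17 at FOS-only sites and 10.9 at the others, and the median −log10 q-value was 5.06 and 18.7. The deposited peaks were shorter as well, with a median length of 138 bp against 235 bp. The share of FOS sites that were FOS-only was 68.1% at a pileup of 5 (62.4–73.4), 47.1% at 10 (46.1–48), and 0.0961% at 30 reads or more, where 42 of 43701 sites qualified. Only 4 of 28745 FOS sites with at least 40 reads were FOS-only. The plot of the share by pileup shows this decline without a step.

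**Figure D1:**
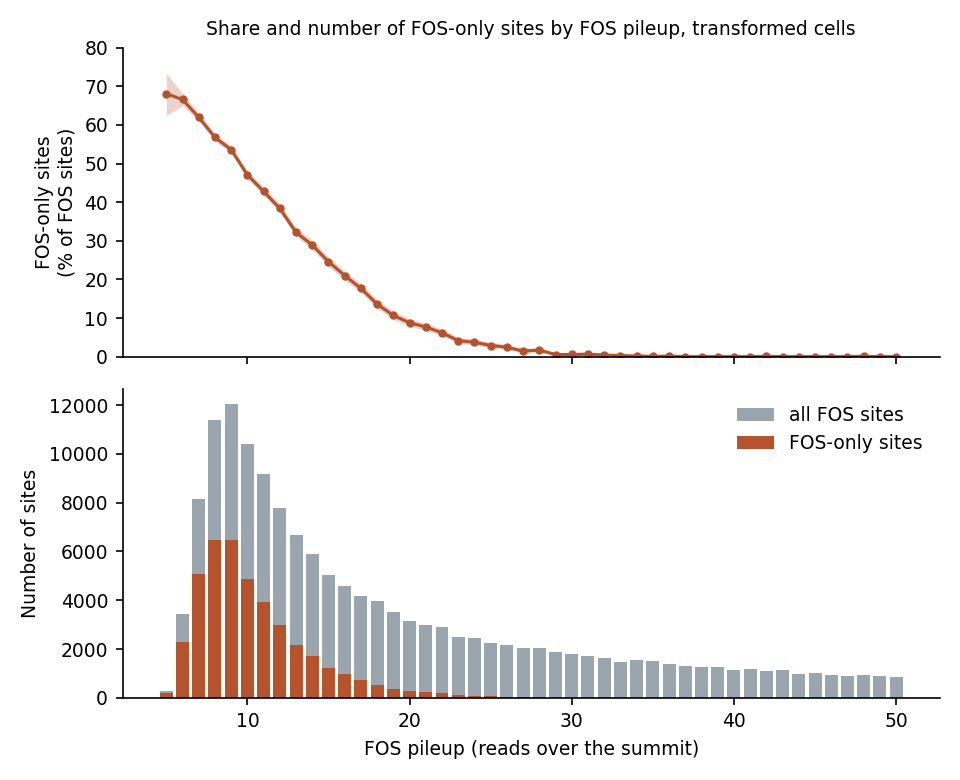
The upper panel plots the percentage of FOS sites of transformed cells that were FOS-only (points; band, Wilson 95% interval) against the FOS pileup in reads, up to 50 reads. The lower panel plots the number of all FOS sites (grey) and of FOS-only sites (brown) at each pileup. The share was 68.1% at 5 reads and 47.1% at 10 reads, and most FOS-only sites had between 6 and 17 reads.

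The partner libraries were shallower than the FOS library, and this bears on how many FOS-only sites could have been matched. Scaled to the depth of the JUN library, the median pileup of FOS-only sites corresponds to 8.36 reads, above the 7 reads that marked the weakest 5% of JUN peaks. At the depth of the STAT3 library it corresponds to 4.06 reads and at that of NFKB1 to 4.38 reads, and the weakest 5% of those lists lay at 5 reads. A partner bound as strongly as FOS would have reached this level at 65.9% of FOS-only sites for JUN and 50.2% for JUNB, but at 21.5% for STAT3 and 28.7% for NFKB1. The 8825 sites that reached it for all 4 partners made up 8.66% of the 101901 FOS sites of at least 13 reads. Shallow partner libraries and true absence of a partner cannot be told apart, also at these sites, since antibodies differ and a peak at this level can be missed.

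The distance from FOS-only sites to the partners varied widely. The nearest partner summit was at a median of 3335 bp, with quartiles of 1000 and 9828 bp and a maximum of 1172491 bp. It belonged to JUN at 35.3% of FOS-only sites, to JUNB at 27.2%, to STAT3 at 19.7% and to NFKB1 at 17.8%, which follows the lengths of the JUN, JUNB, STAT3 and NFKB1 lists (127335, 101014, 80265 and 73822 sites). A partner summit lay within 1000 bp of 10285 FOS-only sites (25%), and 10113 (24.6%) had none within 10000 bp. The deposited interval overlapped that of a partner at 405 FOS-only sites (0.985%). An FOS site shared with a partner was found within 10000 bp of 66.5%.

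FOS-only sites were also less crowded by other FOS sites than shared FOS sites of the same strength were. Another FOS site lay within 1000 bp of 25.7% of FOS-only sites (25.2–26.1) and of 29.6% of the others. When the others were weighted to the FOS pileups of the FOS-only sites, in 10 classes of pileup, their share was 32.9%, a difference of −7.25 percentage points (−7.87 to −6.63). The median distance to the next FOS site was 3388 bp at FOS-only sites and 2557 bp at the others. These values come from the FOS list on which the sites were selected and are descriptive. The part of the selection in the difference was not tested.

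The limit of 300 bp set which sites qualified at its edge. The 1480 FOS sites whose nearest partner lay at 301 to 350 bp and the 1299 sites at 251 to 300 bp had the same median pileup, 9, and the same median fold enrichment, 4.66. A FOS site was present before transformation at 22% of the former and 38.5% of the latter. Any of the partners had been present at 23.4% and 43.5%. Earlier summits were matched with the same limit of 300 bp. An earlier peak beside a partner at 251 to 300 bp can thus count, whereas one beside a partner at 301 to 350 bp can fall outside. These shares are therefore descriptive, and the part of the shared limit in them was not tested. Just outside the limit, the FOS-only site at chr2:61986285-61986431 had 14 reads and a JUNB summit at 301 bp, and just inside it, the shared site at chr2:38834633-38834942 had 18 reads and an NFKB1 summit at 300 bp. Coordinates are those of the lists, for which the submitters' processing notes name hg19.

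The 10 strongest FOS-only sites were of 2 kinds. At 6 of the 10 sites with the highest −log10 q-value, all 4 partners had summits just beyond the limit, between 331 and 584 bp away. The first was chr6:122102069-122102447, with 66 reads, a fold enrichment of 32.8 and a −log10 q-value of 90. JUN, STAT3, NFKB1 and JUNB summits lay 380, 381, 382 and 392 bp from its FOS summit. Before transformation the same place had a FOS peak of 72 reads, with JUN at 15 and JUNB at 17 reads. The second, chr9:118706308-118707355, had 59 reads and the 4 partners at 514 to 546 bp. Before transformation only FOS lay within the limit, at 33 reads, and summits of the 4 partners lay 384 to 544 bp away. Such sites were less frequent beyond the first 10. All 4 partners lay within 1000 bp of 8 of the 42 FOS-only sites of at least 30 reads (19.0%). At 20 reads or more this held for 85 of 1115 (7.62%), and over all FOS-only sites for 9.93%.

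The sites at chr2:88908532-88909277 (42 reads) and chr4:169522356-169522698 (48 reads) had no FOS summit within 300 bp before transformation, but a weak JUNB peak of 8 and 7 reads. In both, FOS summits before transformation lay 416 and 421 bp away. At chr16:82090056-82090534 (36 reads) only an NFKB1 peak of 7 reads had been listed within the limit before, and the nearest earlier FOS summit lay 345 bp away. At chr2:175462438-175462629 (35 reads) FOS with 15 and JUN with 7 reads had been present.

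The other 4 of the 10 had no partner within 1000 bp. The site at chr1:155359690-155360059 had 36 reads, its nearest partner summit was 64985 bp away, and none of the 5 proteins had been within 300 bp of it before transformation. The site at chr20:62409447-62409673 had 33 reads and its nearest partner, JUN, at 18472 bp, again with no summit before. At chr3:14676539-14676849 (32 reads) JUN was 1184 bp away and no protein had been listed before. The site at chr5:171262212-171262389 stood alone in both conditions, with 33 FOS reads after and 23 before at a summit 2 bp away, and with no JUN, JUNB, STAT3 or NFKB1 summit within 10000 bp in either condition. Similar sites with FOS and none of the others before were chr6:37591462-37591722 (32 reads after, 11 before) and chr3:107349795-107349980 (33 after, 13 before), whose nearest partner summits in transformed cells were 5032 and 11063 bp away. At chr18:33935670-33935844 (32 after, 14 before) the nearest partner was JUNB at 635 bp.

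Most FOS-only sites were not listed for any protein before transformation. Of the 41116 sites, 29068 (70.7%; 70.3–71.1) had no summit of the 5 proteins within 300 bp in non-transformed cells, against 31.9% of all FOS sites of transformed cells. FOS without the other 4 had been present at 7104 (17.3%; 16.9–17.6), against 15.6% of all FOS sites. FOS with 1 or more of the others had been at 2760 (6.71%), against 45.1%, and 1 or more of the others without FOS at 2184 (5.31%), against 7.40%. A FOS site before transformation was thus found at 9864 FOS-only sites, 24.0% (23.6–24.4), against 60.7% of all FOS sites of transformed cells and 73.0% of the FOS sites that were not FOS-only. It was 41.8% among FOS-only sites within reach of all 4 partner libraries, and 47.6% when the FOS list of transformed cells was held to a −log10 q-value of at least 10. Both of these are shares of stronger sites, whereas 60.7% and 73.0% cover FOS sites of all strengths. The FOS list of non-transformed cells covered 2.61% of the effective genome when each summit was extended by 300 bp on both sides.

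The partners had rarely been there. Any of the 4 was present before transformation at 4944 FOS-only sites (12.0%; 11.7–12.3), against 52.5% of all FOS sites of transformed cells. This share was 18.2% within reach of all 4 partner libraries and 20% with the stricter FOS list, whereas 52.5% covers FOS sites of all strengths. JUNB was the most frequent with 3172 sites (7.71%; 7.46–7.98), against 37.6% of all FOS sites. JUN followed with 1621 sites (3.94%; 3.76–4.13), against 36.1%. STAT3 was found at 568 sites (1.38%; 1.27–1.5), against 19.8%, and NFKB1 at 63 sites (0.153%; 0.120–0.196), against 6.83%. Before transformation, 0.939% of the effective genome lay within 300 bp of a STAT3 summit and 0.292% within 300 bp of an NFKB1 summit. Those figures count all earlier summits, so they are not a like baseline for the STAT3 and NFKB1 shares. A site at which a partner stayed through transformation is not FOS-only by the rule, so these shares count partner sites listed before and not after.

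The lower share with FOS before was also seen against other FOS sites of like strength. Weighted to the same pileups, 46.3% of the other FOS sites had FOS before, and the difference, FOS-only minus other sites, was −22.3 percentage points (−22.9 to −21.7). It was −22.6 within reach of all 4 partner libraries and −21.0 with the stricter FOS list. With a −log10 q-value of at least 10 in all 10 lists it was −12.3. With limits of 150, 500 and 1000 bp it was −20.4, −29.3 and −36.5. The limit that defined the sites also matched the earlier FOS summits. An earlier FOS peak at a nearby partner can thus count more readily for the other sites than for FOS-only sites. The part of this shared limit in the difference was not tested. For the 4 partners the rule itself fixes that the share before is lower at FOS-only sites, since it removes sites at which a partner stayed. No difference is therefore given for them, and partner shares set beside those of the other FOS sites are descriptive. The bars for proteins found before transformation show these shares side by side.

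**Figure D2:**
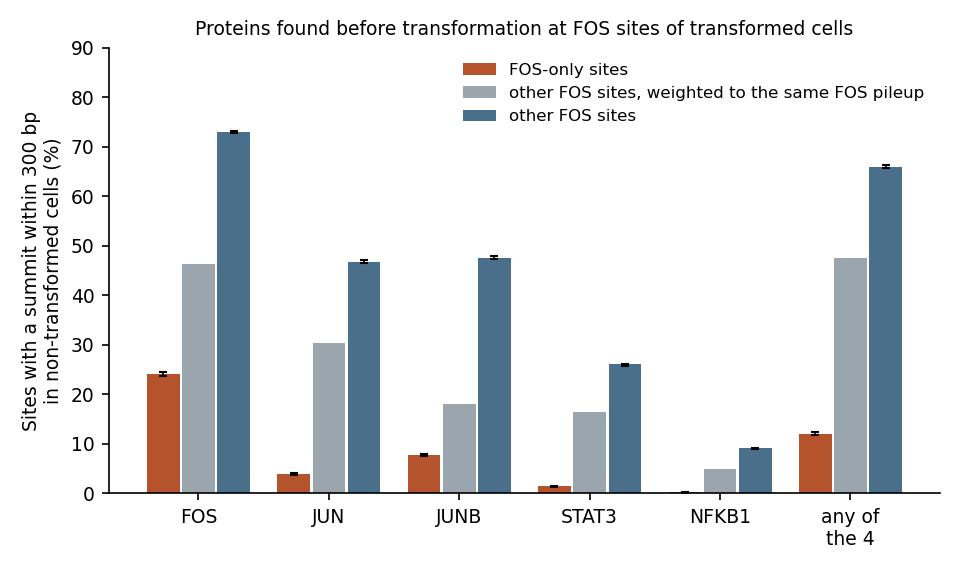
Bars give the percentage of FOS sites of transformed cells with a summit of the named protein within 300 bp in non-transformed cells, for FOS-only sites (brown), other FOS sites (blue) and other FOS sites weighted to the FOS pileups of the FOS-only sites (grey). Error bars are Wilson 95% intervals over sites and are not drawn for the weighted shares. FOS-only sites had FOS at 24.0%, JUNB at 7.71% and JUN at 3.94%, and for the partners the lower bars follow from how the sites were chosen.

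The share with FOS before transformation was higher at stronger FOS-only sites. It was 10.9% at pileups of 5 to 7, 20.9% at 9 to 10, 37.2% at 13 to 15, 53.1% at 20 to 26 and 60% at 27 to 35 reads. The other FOS sites gave 34.5%, 42.2%, 59.8%, 78.5% and 87.9% in the same classes. The intervals of both kinds of site were apart in each of the 8 classes up to 35 reads, under the same shared limit of 300 bp. Above 35 reads there were 6 FOS-only sites.

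**Figure D3:**
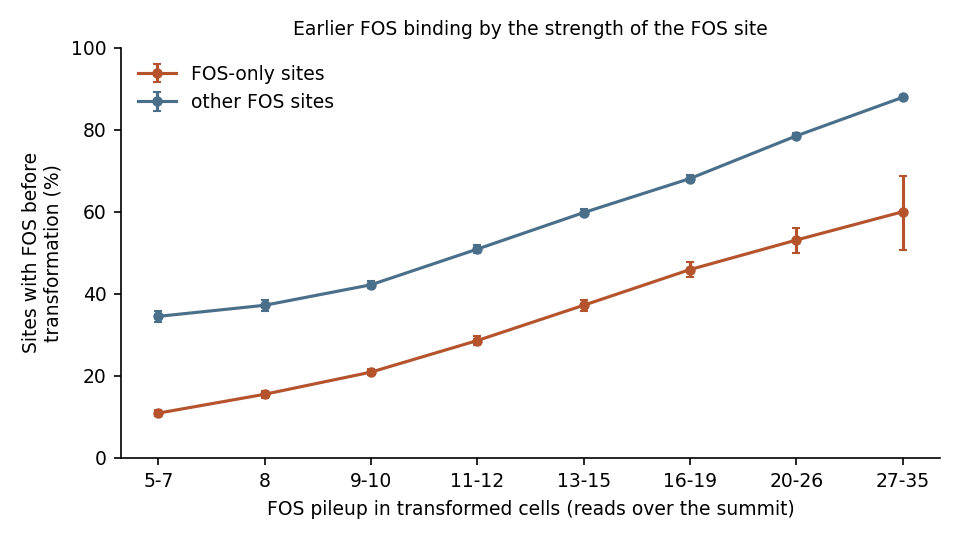
Points give the percentage of FOS-only sites (brown) and other FOS sites (blue) with a FOS summit within 300 bp in non-transformed cells, in classes of FOS pileup in transformed cells, with Wilson 95% intervals over sites. Both lines climb with pileup, from 10.9% to 60% for FOS-only sites and from 34.5% to 87.9% for the others, and the FOS-only line is lower in each class.

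The share with FOS before differed between ranges of distance to the partners, without a steady order. FOS had been present at 20.1% (19.0–21.3) of the FOS-only sites with the nearest partner at 300 to 500 bp, at 19.0% (18–20) at 500 to 1000 bp, at 24.8% (24.3–25.4) at 1000 to 10000 bp and at 26.8% (26.0–27.7) at 10000 to 100000 bp. It was 25.6% (18.6–34.2) at the 117 sites farther away. The median pileups were 9 in the first 2 of these ranges and 10.0 in the others. Partners had been present before at 16.0% of the sites 300 to 500 bp from a partner after transformation, and at 10.8% to 11.8% of sites between 500 and 100000 bp.

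At the 9864 FOS-only sites with FOS in both conditions, the FOS signal scaled to depth was somewhat lower after transformation than before. The median ratio of the pileup per 1000000 filtered reads, after over before, was 0.843, with quartiles of 0.666 and 1.12, and 34.7% of the sites were higher after. The value of 0.843 equals the depth of the earlier FOS library over that of the later one (18619521 and 22082403 reads). Before scaling to depth, the median site thus had the same pileup in both conditions. The other FOS sites found in both conditions had a median ratio of 0.949, with 46.0% higher after. With the fold enrichment in place of the pileup the medians were 0.946 and 1.04, so the size of the difference from 1 depends on the scale. The signal was more than 2-fold higher after transformation at 163 of these FOS-only sites and less than 0.5 of the earlier level at 866. With fold enrichment these counts were 194 and 450, and 45.0% of the sites were higher after. Because the FOS signal after transformation bears on which sites are FOS-only, these ratios are descriptive. FOS summits of FOS-only sites lay at a median of 22 bp from the summit before transformation (21.0–22), against 15 bp at the other FOS sites, and 81.6% were within 50 bp.

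JUNB had been at FOS-only sites more often than JUN. The share with JUNB before was 3.77 percentage points above that with JUN (3.47–4.08), and 9.79 points within reach of all 4 partner libraries, 6.29 with the stricter threshold in all lists and 11.7 with it in the FOS list alone. At the other FOS sites weighted to the same pileups, JUN was present at 30.3% and JUNB at 18.0%, whereas without weighting the shares were 46.8% and 47.6%. The other FOS sites had JUN more often than JUNB up to 15 reads and JUNB more often than JUN above that. JUNB without JUN had been listed at 2871 FOS-only sites and JUN without JUNB at 1320, a ratio of 2.17, against 18627 and 17607 sites and a ratio of 1.06 at the other FOS sites. JUNB made up 68.5% (67.1–69.9) of the sites with either protein alone among FOS-only sites and 51.4% (50.9–51.9) among the others. By the rule, a FOS-only site with earlier JUN or JUNB has no summit of that protein after, which does not hold for the others. The values of both kinds of site are thus descriptive and not a like comparison.

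The JUNB share was higher at stronger sites, and the JUN share differed less between classes up to 26 reads. At FOS-only sites of 5 to 7 reads JUN had been present at 3.29% and JUNB at 3.47%. At 13 to 15 reads the shares were 4.12% and 11.7%, at 20 to 26 reads 5.71% and 20.6%, and at the 110 sites of 27 to 35 reads 11.8% and 33.6%. The other FOS sites had the same trend, with 30.9%, 28.7%, 34.9% and 48.8% for JUN and 12.9%, 24.4%, 44.1% and 60.7% for JUNB in these classes. Of the 9864 FOS-only sites with FOS before, 2118 (21.5%; 20.7–22.3) had JUNB beside it and 716 (7.26%; 6.76–7.79) had JUN. At the other FOS sites with FOS before, JUNB was beside it at 62.0% and JUN at 57.4%, or 31.9% and 39.3% when weighted to the same pileups. The lower JUN and JUNB shares at FOS-only sites, here and in the classes, follow from the rule, which removes sites at which a partner stayed.

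This order moved with a broader difference between both lists. Among all FOS sites of transformed cells with JUNB before, 7442 of 61956 had no JUNB summit after (12.0%; 11.8–12.3), and with JUN before, 4105 of 59385 had no JUN summit after (6.91%; 6.71–7.12). Of the FOS sites without their former JUNB, 42.6% (41.5–43.8) were FOS-only, and of those without their former JUN, 39.5% (38.0–41). STAT3 differed from both: 4997 of 32646 FOS sites with STAT3 before had none after (15.3%), and 11.4% of these (10.5–12.3) were FOS-only. For NFKB1 the figures were 707 of 11241 (6.29%) and 8.91% (7.03–11.2). The JUNB library before transformation was the shallower of the JUNB pair.

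The partner sites that had been present were mostly weak. Their median pileup was 8 for JUN, 7 for JUNB, 8 for STAT3 and 7 for NFKB1. A −log10 q-value of at least 10 was reached by 2.59% of the JUN sites, 10.6% of the JUNB sites, 7.22% of the STAT3 sites and 17.5% of the NFKB1 sites. In the other FOS sites the same level was reached by 41.8%, 55.5%, 42.3% and 38.5%. Before transformation 458 FOS-only sites had 2 or more partners (1.11%), 21 had 3 or more (0.0511%), and 1 had all 4. Over all FOS sites of transformed cells the shares were 30.7%, 13.6% and 3.54%, and the rule removes the sites at which these partners stayed. The site with all 4, chr5:124242430-124242699, had 23 FOS reads after transformation, and before it STAT3 with 83, NFKB1 with 36, JUN with 28 and JUNB with 7 reads. After transformation summits of the 4 partners lay 304 to 348 bp from the FOS summit, the nearest of them 4 bp beyond the limit.

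Seen from non-transformed cells, few FOS-only sites persisted as such. In the same definition applied to the lists of non-transformed cells, 39071 of 119754 FOS sites were FOS-only (32.6%; 32.4–32.9). After transformation 6989 of them (17.9%; 17.5–18.3) had a FOS-only site within 300 bp, 18387 (47.1%; 46.6–47.6) had FOS with another protein, and 13695 (35.1%; 34.6–35.5) had no FOS site. Of the 80683 FOS sites with another protein before, 2731 (3.38%; 3.26–3.51) had a FOS-only site after, 71343 (88.4%) had FOS with another protein, and 6609 (8.19%) had no FOS site. The partner lists were longer in transformed than in non-transformed cells for all 4 proteins (JUN 127335 against 81444 sites, NFKB1 73822 against 13252), which moves with the gain of partners, and its part in the result was not tested.

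**Figure D4:**
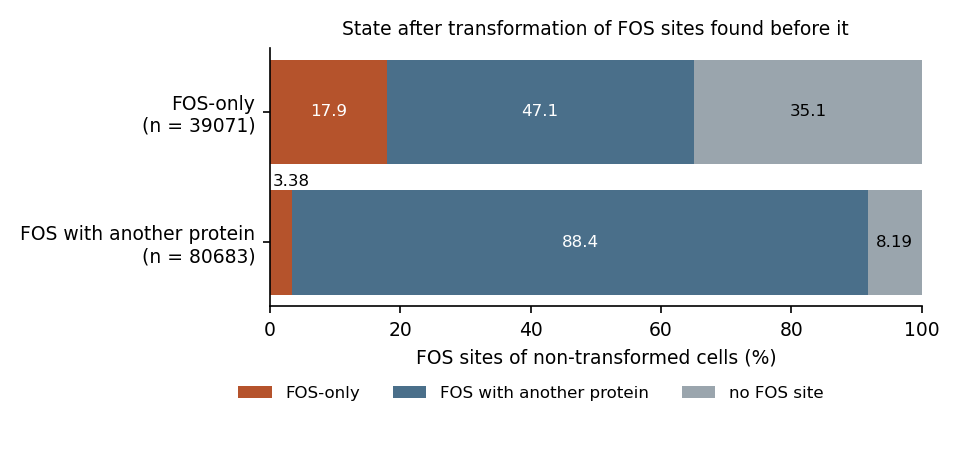
Stacked bars give the percentage of FOS sites of non-transformed cells that in transformed cells had a FOS-only site (brown), a FOS site with another of the 4 proteins (blue) or no FOS site (grey) within 300 bp. Of the sites that were FOS-only before, 17.9% were FOS-only after and 47.1% had another protein, and of the sites with another protein before, 3.38% were FOS-only after.

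FOS-only sites were spread over the genome. The share of FOS sites that were FOS-only was between 23.1% and 26.3% on 21 of the 23 chromosomes. It was 29.3% on chromosome X (28–30.6), where 27.7% of FOS sites with the same pileups were FOS-only over all chromosomes together. On chromosome 19 it was 20.5% (18.9–22.1), against 29.5% for the same pileups. The FOS sites of chromosome 19 had JUN at 66.2% (54.2% for the same pileups), STAT3 at 45.4% (34.5%) and NFKB1 at 42.4% (29.9%), whereas JUNB was at 44.2% (47.8%). Of the 525 FOS-only sites of chromosome 19, 29.0% had FOS before (25.2–33), against 24.0% of all FOS-only sites. These chromosome values use the lists that defined the sites and are descriptive.

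**Figure D5:**
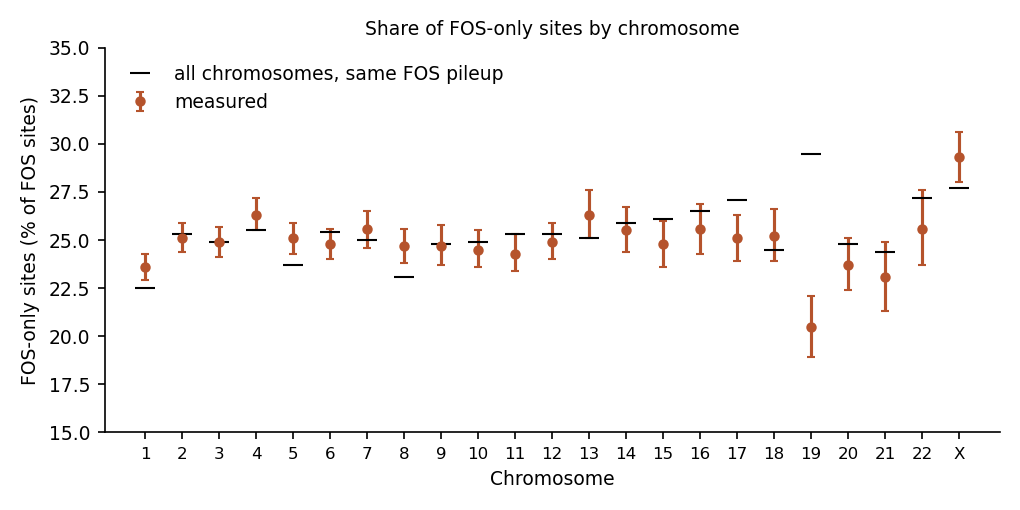
Points give the percentage of FOS sites of transformed cells that were FOS-only on each chromosome with Wilson 95% intervals over sites, and dashes the percentage for FOS sites of the same pileups over all chromosomes. The axis starts at 15%. Chromosome 19 is lowest at 20.5% with its dash at 29.5%, and chromosome X is highest at 29.3%.

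In windows of 1 Mb, 2810 of the 2850 windows with a FOS site held a FOS-only site, with a median of 14 and a maximum of 39. The maximum was at chr14:101000001-102000000, where 39 of 87 FOS sites were FOS-only (44.8%; 34.8–55.3), against 30.1% for the same pileups, and 7 of the 39 had FOS before. The next windows were chr4:10000001-11000000 with 35 of 98 FOS sites, chr14:103000001-104000000 with 35 of 103, chr1:68000001-69000000 with 34 of 119 and chr18:12000001-13000000 with 33 of 101. Among windows with at least 20 FOS sites, the share was highest at chr8:112000001-113000000, where 14 of 21 FOS sites were FOS-only (66.7%; 45.4–82.8) and none of the 14 had FOS before. It was followed by chr2:199000001-200000000 with 20 of 31, chr18:50000001-51000000 with 18 of 28, chr4:117000001-118000000 with 20 of 32 and chr10:57000001-58000000 with 12 of 20. For the same pileups, 35.1% to 40.4% of FOS sites were FOS-only over all windows, against 60% to 66.7% in these 5, which were picked for their high shares.

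The 2 other AP-1 lists gave smaller shares of sites without a partner. In the same rule turned to each protein, 20403 of 127335 JUN sites were JUN-only (16.0%) and 7757 of 101014 JUNB sites were JUNB-only (7.68%), in libraries shallower than that of FOS. For JUN and JUNB the partner lists also include that of FOS, the longest with 164605 sites. Its part in the smaller shares was not tested. The share with the own protein before transformation was 27.3% at JUN-only sites and 6.74% at JUNB-only sites. FOS-only sites differed from the former by −3.34 percentage points (−4.08 to −2.60) and from the latter by 17.2 (16.5–17.9), without weighting for strength. The lists before transformation also differed in length, with 119754 sites for FOS, 81444 for JUN and 75249 for JUNB.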

How the data were processed

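ChIP-seq of FOS, JUN, JUNB, STAT3 and NFKB1 was deposited as 10 peak lists, 1 per protein and condition, which were assigned from the labels. The authors ran MACS 2.0.10.20131216 on each library by itself, with 36-bp reads that aligned uniquely and no control. Per the file headers, 1 read per position was kept, the q-value cutoff was 0.05, the local background spanned 1000000 bp, and the genome size was set to 2700000000 bp. The submitters' processing notes name Bowtie, MACS2 and hg19. The deposited pileup is a signal, in extended reads over the summit, which the authors did not scale. The deposited significance is the −log10 of the p-value and q-value. The fold enrichment deposited beside it is the ratio of pileup to background, with 1 read added to each. The deposited positions are 1-based.

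Sites were matched by summits at most 300 bp apart. Shares have Wilson 95% intervals, raw differences Newcombe intervals, and weighted differences a normal interval over 10 classes of FOS pileup. Medians have order-statistic intervals. The matching code was tested on simulated data. Python 3.11.15, numpy 2.4.6, pandas 2.3.3 and matplotlib 3.10.9 were used. The sites and tests were chosen with earlier results of these data known. Named sites were the 10 FOS-only sites of highest −log10 q-value, those highest without FOS before, with FOS alone before and with all 4 others before, and the highest just outside and inside 300 bp; named windows had most FOS-only sites or the highest share. The reference at hand is GRCh38, and 460 FOS peaks of transformed cells ended past its chromosome ends, on 16 chromosomes. Sequences, motifs and gene annotation were therefore not used here, and no coordinates were converted.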

Additional observations from a re-analysis of the deposited data

Results flagged for a closer look

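Outside the chromosomes analysed, 5 of the 54 FOS sites listed on chromosome Y in transformed cells were FOS-only, and this was picked out because the comparisons do not use that chromosome. None of the 10 FOS sites on the mitochondrial genome was.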

How the results depend on the processing

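The number of FOS-only sites, 41116, was 23965 with a −log10 q-value of at least 10 in all 10 lists, 5491 with that threshold in the FOS list of transformed cells alone, and 8825 among sites within reach of all 4 partner libraries, which is fewer sites by construction. It ranged up to 52843 when 1 partner list was left out of the rule, and was 45252 with JUN and JUNB lists of equal length. The share with FOS before (24.0%) was 22.7% at 150 bp, 25.3% at 500 bp, 27.2% at 1000 bp, 23.1% with whole peak intervals, 34.3% and 47.6% with the stricter threshold in all lists and in the FOS list, 41.8% within reach and 26.1% with lists of equal length. The share with any partner before (12.0%) was 10.8%, 12.8%, 14.1%, 10.7%, 8.31%, 20%, 18.2% and 13% in the same order. The pileup-weighted difference in the share with FOS before kept its sign under the 12 alternatives run, from −36.5 to −12.3 percentage points, as did the excess of JUNB over JUN under 10, from 3.34 to 11.7. The ratio of the FOS signal after to before was 0.946 with fold enrichment. The causes of these shifts were not tested. The JUNB and JUN comparison, the reach of the partner libraries, lists of equal length, 1 class per pileup below 25 reads and leaving out the NFKB1 list before transformation were chosen after seeing the data. No paired analysis was possible because each protein has 1 library per condition among those analysed here. For the same reason no replicate was left out. The planned shares near transcription starts and with AP-1 motifs were not run, since they need the genome of the lists' build. Depth limits the absence of partners most for STAT3 and NFKB1.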
